A study of Bos indicus with 6 samples.

Results

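The 9 Hedgehog genes described here are the ligands SHH, IHH and DHH, the receptors PTCH1 and SMO, the ligand-binding inhibitor HHIP, and the transcription factors GLI1, GLI2 and GLI3. They were taken by symbol from the isthmus expression table, in which each stood on 1 row, so that they are 9 of the 24616 genes listed. The isthmus, the segment of the oviduct next to the uterus, came from 6 healthy multiparous Nelore cows (Bos indicus), with 1 RNA-seq library per cow. The cows were slaughtered on day 4 after the GnRH injection that induced ovulation. Both groups were pre-synchronized with a prostaglandin F2α (PGF) analog and a GnRH agonist, and then received an intravaginal progesterone device of 1 g with 2 mg estradiol benzoate, PGF at device removal and again later, and a GnRH agonist. The 3 LF/LCL cows (large follicle, large corpus luteum) received an additional PGF injection when the device was inserted, and carried the device until 42 h before GnRH. The 3 SF/SCL cows (small follicle, small corpus luteum) carried it until 30 h before GnRH. For sequencing, the study took the highest-ranking LF/LCL and the lowest-ranking SF/SCL animals by follicle, corpus luteum and hormone measurements, and the tissue was the whole oviduct wall on the side of the corpus luteum.

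Hedgehog ligands are lipid-modified secreted proteins that bind Patched receptors on neighbouring cells. Unliganded PTCH1 holds SMO inactive, and when a ligand binds, SMO acts in the primary cilium so that GLI2 and GLI3 are no longer processed to repressors. GLI1, PTCH1 and HHIP are themselves transcribed in responding cells, which makes their transcripts common readouts of the pathway, while PTCH1 and HHIP restrain it. In the reproductive tract the best known circuit is that of the uterus, where IHH is made by the epithelium under progesterone and received by the stroma, in which NR2F2 is induced. No sequences or positions of these genes are given.

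The libraries held 23899117 to 34193164 uniquely mapped reads. Values are normalized read counts, that is, reads divided by the size factor of the library, and they are compared here for 1 gene between cows and not between genes, whose lengths differ. SF/SCL cow 489215 stood apart from the other cows. Around the group means, the median SD of a gene on the log2 scale was 0.435 over the 6 libraries and 0.183 when this cow was left out, and 5488 of the 15387 genes tested (35.7%) had their lowest value in this cow. With limma, 0 genes (0%) passed a Benjamini-Hochberg adjusted p-value of 0.05 and 1333 (8.66%) reached 0.05 before adjustment. With edgeR 0 genes passed the adjusted threshold, and DESeq2 called 416 genes. The study, with the negative binomial test of DESeq, reported differentially expressed isthmus genes in both directions. In limma 2827 of 15495 genes (18.2%) passed the adjusted threshold without cow 489215. Differences of the Hedgehog genes are therefore given with and without this cow. Without it, cows 856 and 97 are the only SF/SCL cows. The limma fits that left out each cow in turn were planned, but this cow was singled out once its values had been seen. The adjusted p-values without it are therefore given as description and not as group calls. The tissue had the transcripts of smooth muscle (MYH11 at 82654 to 191119) and of ciliated epithelium (FOXJ1 at 2609 to 12042) in every library. In whole tissue, fewer cells of a type and less RNA per cell cannot be told apart.

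Among the ligands, IHH differed most between cows. Its normalized count was 1225, 1973 and 2478 in LF/LCL cows 617, 79 and 527, and 102, 403 and 3300.4 in SF/SCL cows 856, 97 and 489215. Cows 856 and 97 were thus below every LF/LCL cow and cow 489215 was above them all, so the groups overlapped. The group means were 1892 ± 631 and 1268 ± 1766 (SD, n = 3 each). The log2 fold change of SF/SCL over LF/LCL was -1.82 (SE, the standard error, 1.18, with a limma adjusted p of 0.762). Without cow 489215 IHH fell by 3.16 on the log2 scale (SE 0.57, limma adjusted p = 0.0157), which is 8.91-fold. The difference with all cows was -0.63 in edgeR and -0.58 in DESeq2, neither past the threshold, and in limma it was -0.65 without cow 856. The reads behind these values are many, as cow 856 had 134 IHH reads (95% exact Poisson interval 112 to 159) and cow 97 had 372, so counting error does not span the gap between cows.

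DHH, a ligand of Schwann cells and endothelium, was detected at a low level. LF/LCL cows 617, 79 and 527 had normalized counts of 20.9, 41.3 and 37.8, and SF/SCL cows 856, 97 and 489215 had 17.5, 13.005 and 10.7. All 3 SF/SCL cows lay below all 3 LF/LCL cows, although cow 617, with 20 reads (95% exact Poisson interval 12.2 to 30.9), and cow 856, with 23 reads (14.6 to 34.5), were not apart in counting error. SF/SCL over LF/LCL differed by -1.19 on the log2 scale (SE 0.45, limma adjusted p = 0.524), and -1.04 without cow 489215 (limma adjusted p = 0.167). Markers of nerve and Schwann cells are given beside DHH. NGFR had a mean of 87.5 ± 30.7 in LF/LCL and 30.7 ± 4.97 in SF/SCL (SD, n = 3 each), without overlap. The defining factor SOX10 was present in every library, at 54.4 to 128 in LF/LCL and 19.7 to 59.9 in SF/SCL. Of the 8 markers of nerve and Schwann cells, 7 were tested, of which 5 were lower in SF/SCL, and their summed level was 8086 to 12064 in LF/LCL and 13770 to 38804 in SF/SCL. S100B, which is not restricted to these cells, had means of 4033 and 23388 in that sum. The part of Schwann cells in the DHH difference was not tested.

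SHH was at the limit of detection, with 4 to 9 reads per library. The normalized counts were 6.28, 4.69 and 7.91 in LF/LCL cows 617, 79 and 527, and 3.04, 6.503 and 5.33 in SF/SCL cows 856, 97 and 489215. Their log2 difference of -0.32 (SE 0.51, limma adjusted p = 0.907), or -0.38 without cow 489215, was within the spread of the cows. The 95% exact Poisson interval of the lowest value, 4 reads in cow 856, was 0.83 to 7.78 normalized counts. That interval covered the values of all other cows but cow 527, whose own interval of 3.61 to 15.0 overlapped it. No difference in SHH of the size seen could be told from counting error at this depth.

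**Figure D1:**
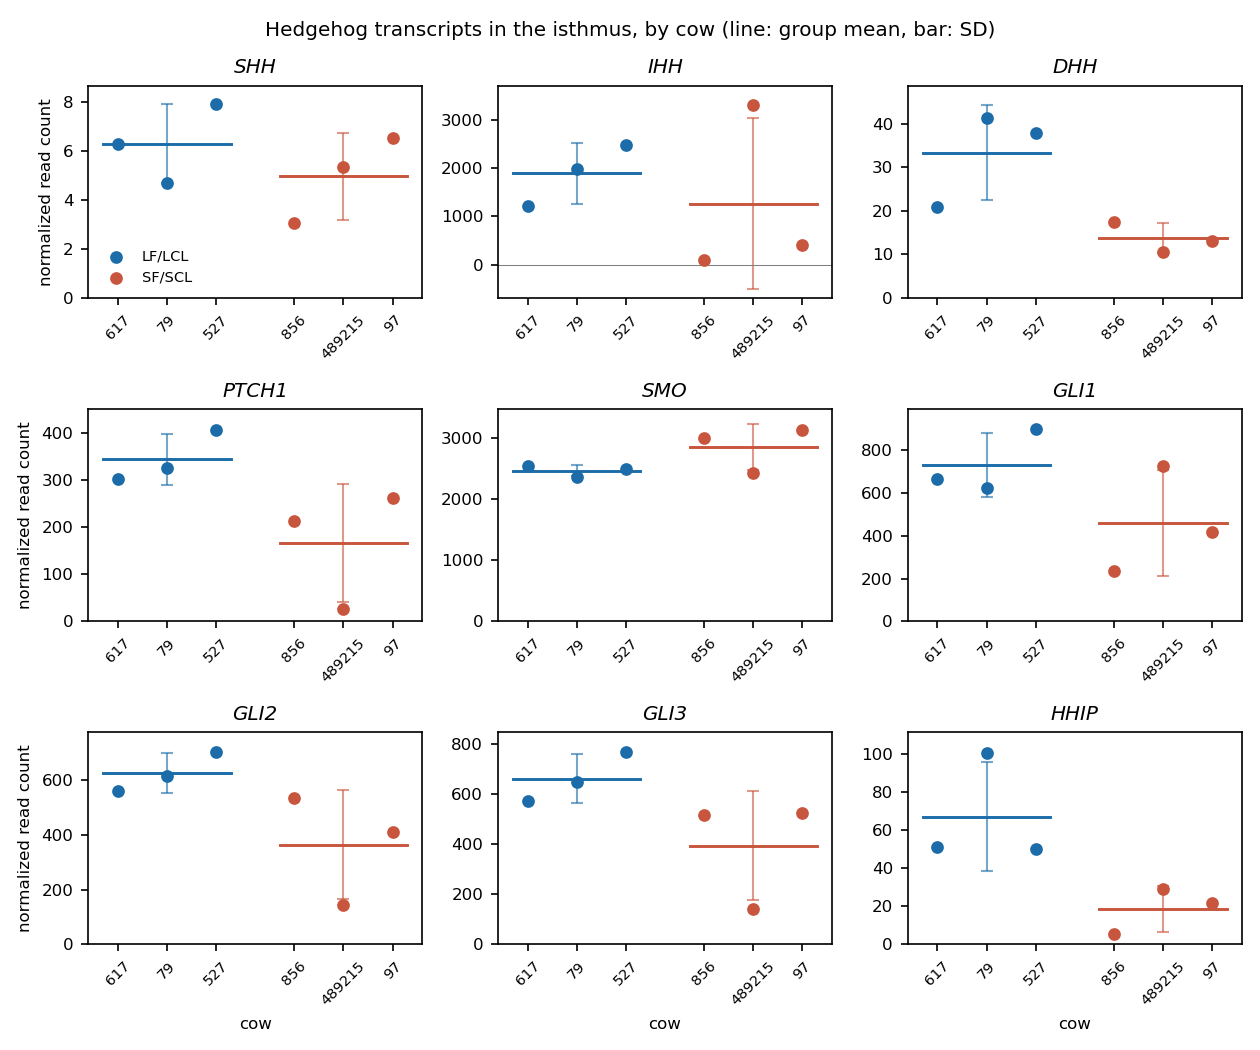
Normalized read counts (vertical axes, linear) of the 9 Hedgehog genes in each of the 6 cows (horizontal axes), with LF/LCL in blue and SF/SCL in red, a line at the group mean and a bar of 1 SD. In IHH and GLI1, SF/SCL cow 489215 sits with or above the LF/LCL cows, whereas in PTCH1, GLI2 and GLI3 it is the lowest of the 6.

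PTCH1, the receptor that holds SMO inactive, was lower in every SF/SCL cow than in any LF/LCL cow. Its normalized count was 302, 325 and 406 in cows 617, 79 and 527, and 212, 261 and 25.3 in cows 856, 97 and 489215. The last value rests on 19 reads (95% exact Poisson interval 11.4 to 29.7) and sets most of the group difference. On the log2 scale the difference was -1.59 (SE 0.87, limma adjusted p = 0.694), or 3.01-fold, and -0.54 (SE 0.20, limma adjusted p = 0.111), or 1.45-fold, without cow 489215.

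SMO, the membrane protein that passes the signal on, was the one gene of the 9 with a higher mean in SF/SCL. LF/LCL cows had 2536, 2363 and 2499 normalized counts (cows 617, 79 and 527), and SF/SCL cows 856, 97 and 489215 had 3005, 3131 and 2430. Cow 489215 lay within the LF/LCL values and the other SF/SCL cows above them. SF/SCL minus LF/LCL was 0.20 on the log2 scale (SE 0.17, limma adjusted p = 0.834). Without cow 489215 SMO rose by 0.32 on the log2 scale (SE 0.08, limma adjusted p = 0.0480), a call that edgeR did not make (adjusted p = 0.0509).

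HHIP, a membrane-anchored protein that binds and sequesters all Hedgehog ligands, had the largest log2 fold change of the 9 genes in limma with all 6 cows. Cows 617, 79 and 527 had 51.3, 100.4 and 50.1 normalized counts, and cows 856, 97 and 489215 had 5.32, 21.7 and 29.3. The groups did not overlap, and for HHIP cow 489215 was the nearest of its group to LF/LCL. The difference on the log2 scale was -1.99 (SE 0.69, limma adjusted p = 0.485), and -1.30 without cow 856. Without cow 489215 HHIP fell by 2.43 (SE 0.64, limma adjusted p = 0.0454), or 5.41-fold, and the edgeR adjusted p was 0.0625. The value of cow 856 rests on 7 reads (95% exact Poisson interval 2.81 to 14.4), against 49 to 107 reads in the LF/LCL cows.

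GLI1, the activator that is induced by the pathway, had the pattern of IHH in a smaller range. Its normalized count was 668, 621 and 901 in cows 617, 79 and 527, and 236, 416 and 728 in cows 856, 97 and 489215. Cows 856 and 97 were below the LF/LCL cows and cow 489215 was among them. The log2 difference came to -0.79 (SE 0.43, limma adjusted p = 0.690), and -0.39 without cow 856. Without cow 489215 GLI1 fell by 1.20 (SE 0.28, limma adjusted p = 0.0316), or 2.29-fold, and it also passed in edgeR (adjusted p = 0.0383).

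GLI2, the main activator that acts before GLI1 is induced, and GLI3, the main repressor, followed PTCH1 and not GLI1. GLI2 had 561, 617 and 704 normalized counts in cows 617, 79 and 527, and 537, 413 and 145 in cows 856, 97 and 489215. GLI3 had 570.4, 648 and 766 in the former and 516, 522 and 142 in the latter. For both genes the groups did not overlap, by a narrow margin between cow 617 and the nearer SF/SCL cows and a wide one to cow 489215. In both genes the 95% exact Poisson interval of cow 617 overlapped that of the nearest SF/SCL cow. The log2 fold changes were -0.97 and -0.96 (SEs 0.49 and 0.53, limma adjusted p = 0.662 and 0.700). Without cow 489215 they were -0.41 and -0.34, neither past the threshold (limma adjusted p = 0.148 and 0.178).

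All 9 genes passed the filter on low values and entered the fit. None had an adjusted p-value under 0.05 with all 6 cows, in limma, edgeR or DESeq2, where 0%, 0% and 2.70% of all genes passed. DESeq2 returned no adjusted p-value for SHH. Before adjustment, limma put DHH and HHIP under 0.05, against 8.66% of all genes. Of the 9 log2 fold changes 8 were negative, with a median of -0.97 (-0.54 without cow 489215), while 51.4% of all genes tested were lower in SF/SCL, with a median of -0.02. DHH, PTCH1, GLI2, GLI3 and HHIP were lower in SF/SCL with no overlap of the cows, which was so for 5 of the 9 genes (55.6%) and for 1323 of the 15387 genes tested (8.60%). Among the 8 fibroblast markers described below it was so for 5 (62.5%). In the opposite direction it was so for 0 of the 9 and for 9.51% of all. Without cow 489215, IHH, GLI1 and HHIP were past the threshold as lower in SF/SCL, as were 7.92% of all genes, and SMO as higher, as were 10.3%. In edgeR IHH and GLI1 passed without that cow, against 17.9% of all genes, and in DESeq2 the same 4 genes as in limma, against 25.4%.

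**Figure D2:**
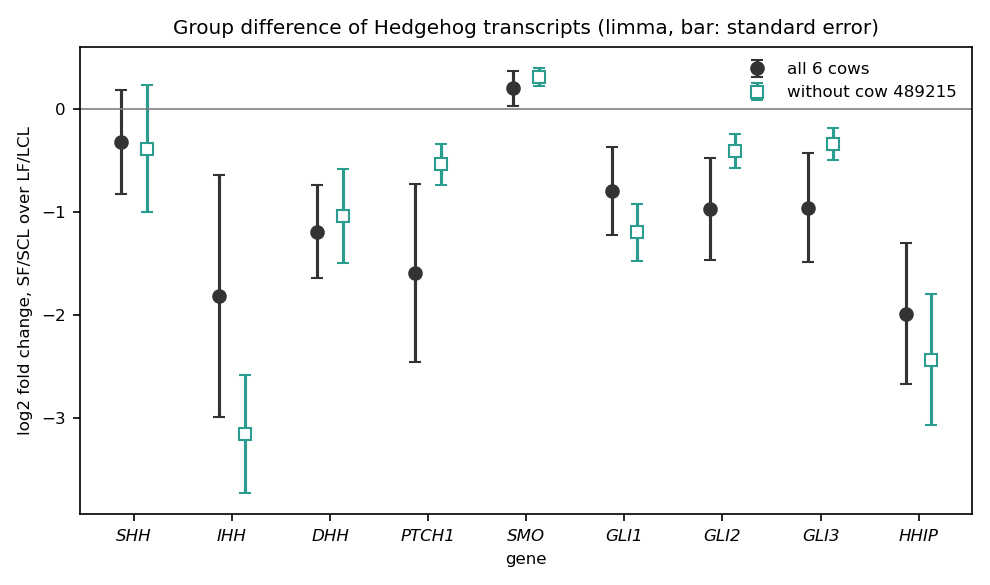
Log2 fold change of SF/SCL over LF/LCL (vertical axis) for the 9 genes (horizontal axis), from limma with all 6 cows (filled circles) and without SF/SCL cow 489215 (open squares), with bars of 1 SE. Leaving out cow 489215 moved IHH from -1.82 to -3.16 and PTCH1 from -1.59 to -0.54, and SMO alone was above 0 in both fits.

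The 9 genes did not deviate in the same direction in cow 489215. On the log2(value + 1) scale, relative to the mean of the other SF/SCL cows, IHH was 16.2-fold, HHIP 2.53-fold and GLI1 2.32-fold higher in this cow, and PTCH1 was 8.99-fold, GLI3 3.63-fold and GLI2 3.23-fold lower. SHH, DHH and SMO were within 1.38-fold. Among all genes tested, 25.1% were more than 2-fold below the mean of cows 856 and 97 in cow 489215, so low values there were common. How common values as far above that mean were was not counted. The ratio of GLI1 to GLI3 within a library, which does not depend on its size factor, was 1.17, 0.959 and 1.18 in cows 617, 79 and 527, 0.458 and 0.797 in cows 856 and 97, and 5.11 in cow 489215. The ratio of HHIP to PTCH1 was 0.123 to 0.309 in the LF/LCL cows, 0.0251 and 0.0830 in cows 856 and 97, and 1.16 in cow 489215. Both ratios were thus lower in cows 856 and 97 than in any LF/LCL cow, and highest in cow 489215. The ratio of GLI1 to GLI2 was also highest in that cow, at 5.02, but in cow 97 (1.01) it was not below the LF/LCL cows (1.01 to 1.28). The ratio of PTCH1 to SMO did not overlap between the groups, at 0.119, 0.137 and 0.162 in cows 617, 79 and 527 and 0.0705, 0.0834 and 0.0104 in cows 856, 97 and 489215.

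The remaining pathway was followed through 44 further genes in 4 lists, of which 42 were found by symbol, on 43 rows because GSK3B stands on a pair of rows between which reads could have been divided. The filter kept 41 rows and left out DISP2 and FOXL1. With limma and edgeR 0 of them passed the adjusted threshold, limma put 5 (BOC, LRP2, KIF7, BMP4 and MYCN, all lower in SF/SCL) under 0.05 before adjustment, where 8.66% of all genes were, and LRP2 alone passed in DESeq2, where 2.70% of all genes did. Of the 41, 33 (80.5%) were lower in SF/SCL, with a median log2 fold change of -0.37. Over all genes tested, 51.4% were lower in SF/SCL, with a median of -0.02, and the counts of each list below stand beside that share. Without cow 489215 the median over 42 rows was -0.15, and limma called 5 as lower and 6 as higher. Of all genes in that fit, 7.92% were called as lower and 10.3% as higher. In 9 rows (22.0%) all LF/LCL cows were above all SF/SCL cows, which was so for 8.60% of all genes, and the reverse was found in 0 rows.

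For the release of ligands, 4 rows were tested and all 4 had negative log2 fold changes, with a median of -0.46, or -0.28 over 5 rows without cow 489215. DISP1, which exports lipid-modified ligand from the cells that make it, had 171 ± 18.4 in LF/LCL and 131 ± 17.5 in SF/SCL (SD, n = 3 each), a log2 difference of -0.39, or -0.28 without cow 489215. SCUBE1, a secreted protein of the family that carries the ligand, had 342 ± 56.0 and 234 ± 11.96 (SD, n = 3 each), which came to -0.54 on the log2 scale and to -0.57 without that cow. In neither did the groups overlap. SCUBE2 and DISP2, picked once their values were known, passed without cow 489215 in opposite directions. SCUBE2 was lower at -0.64 and DISP2 higher at 2.86 on the log2 scale (limma adjusted p = 0.0244 and 0.0196). With all cows the SCUBE2 difference was -0.39, not past the threshold, and cow 489215, at 1704, lay above every LF/LCL cow. DISP2 was left out by the filter with all cows. Its normalized count was 0 in cow 489215, 3.51 to 11.3 in LF/LCL, and 56.2 and 62.9 in the other SF/SCL cows.

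All 6 coreceptors and ligand-binding receptors were lower in SF/SCL, with a median log2 fold change of -0.71 that shrank to -0.40 when cow 489215 was left out. BOC, a coreceptor that presents the ligand to Patched, had 2474, 1928 and 1519 normalized counts in cows 79, 617 and 527, and 1273, 1072 and 1214 in cows 856, 97 and 489215. This was a log2 difference of -0.71 (SE 0.23, limma adjusted p = 0.454), and -0.73 without cow 489215. CDON, the related coreceptor, was picked once its values were known. Its log2 difference was also -0.71, but -0.10 when cow 489215 was left out. LRP2 (megalin), an endocytic receptor with many ligands, SHH among them, had 9318, 13394 and 14466 in cows 617, 79 and 527 and 1161, 1331 and 3167 in cows 856, 97 and 489215. Cow 489215 was with its group for LRP2, and its log2 difference of -2.84 (SE 0.41, limma adjusted p = 0.351) became -3.29 without it (limma adjusted p = 0.00148). DESeq2 called LRP2 with all 6 cows (adjusted p = 3.66e-06).

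Of the 18 rows for the control of GLI factors, 13 were lower in SF/SCL, with a median of -0.11. Leaving out cow 489215 turned the median to 0.11, and 1 of the 18 was then called as lower and 3 as higher by limma. The shares over all genes in that fit were 7.92% lower and 10.3% higher. KIF7, the kinesin that organizes the tip of the primary cilium and restrains GLI factors, had 412 ± 82.5 and 224 ± 60.0 (SD, n = 3 each), or -0.89 on the log2 scale (-0.70 without cow 489215), without overlap. PRKACA, a catalytic subunit of the protein kinase that marks GLI factors for processing, had 1439 ± 36.7 and 1155 ± 152 (SD, n = 3 each), or -0.33 (-0.22 without cow 489215), without overlap. SUFU, which binds and holds back GLI factors and was picked once its values were known, differed by -1.08 on the log2 scale, but by -0.16 when cow 489215 was left out. Without that cow PRKACB fell by 0.49, and STK36, IFT88 and KIF3A, which are needed for cilia, rose by 0.67, 0.53 and 0.42 (limma adjusted p = 0.0149, 0.0387, 0.0245 and 0.0379, in this order). These 4 were picked once their values were known. With all cows their log2 differences were -0.23, 0.33, 0.41 and -0.17, in the same order, none past the threshold in limma. Cow 489215 was above every LF/LCL cow for PRKACB, at 3203, and below them all for STK36 and KIF3A, at 482 and 429. For IFT88 it was within the LF/LCL values, at 1918. The summed markers of ciliated epithelium were 33846 to 44849 in LF/LCL, 63415 and 67068 in cows 856 and 97, and 43370.5 in cow 489215. These markers were 8 genes, of which PIFO was at 0 in every library. Their part in the differences of STK36, IFT88 and KIF3A was not tested.

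Among the genes known to respond to Hedgehog signals in the mesenchyme of several organs, 10 of 13 tested were lower in SF/SCL, with a median of -0.37, or -0.59 without cow 489215. BMP4, a secreted growth factor, had 670.4 ± 116 and 399 ± 49.2 (SD, n = 3 each), or -0.74 on the log2 scale without overlap, and it fell by 0.81 without cow 489215 (limma adjusted p = 0.0303). BMP4, like NGFR, is on a list that the study drew for the LF/LCL isthmus from the same libraries, so its direction is not independent evidence. MYCN, a transcription factor of proliferating cells, had 33.8 ± 4.31 and 16.8 ± 5.64, and WNT5A, a secreted ligand, had 528 ± 118 and 255 ± 140 (SD, n = 3 each), with log2 fold changes of -1.01 and -1.23. Without cow 489215 these were -1.24 and -0.64. NR2F2, the stromal target of uterine IHH, and the cyclins CCND1 and CCND2 were picked once their values were known. NR2F2 had 11771, 10758 and 10311 in cows 617, 79 and 527 and 5668, 6020 and 17792 in cows 856, 97 and 489215, lowest in cows 856 and 97 and highest in cow 489215 as IHH was. The summed smooth muscle markers given below were also lowest in cows 856 and 97 and highest in cow 489215. Within LF/LCL, NR2F2 was highest in cow 617, where IHH was lowest. The part of muscle in the NR2F2 difference was not tested. NR2F2 fell by 0.90 without cow 489215 (limma adjusted p = 0.00333), whereas CCND1 and CCND2 rose by 1.16 and 0.60 (limma adjusted p = 0.0125 and 0.0489). With all 6 cows the log2 fold changes of NR2F2, CCND1 and CCND2 were -0.37, 0.18 and 0.0055, none past the threshold. Cow 489215 had normalized counts of 79.9 for CCND1 and 126 for CCND2, below the LF/LCL cows (246 to 334 and 252 to 319).

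**Figure D3:**
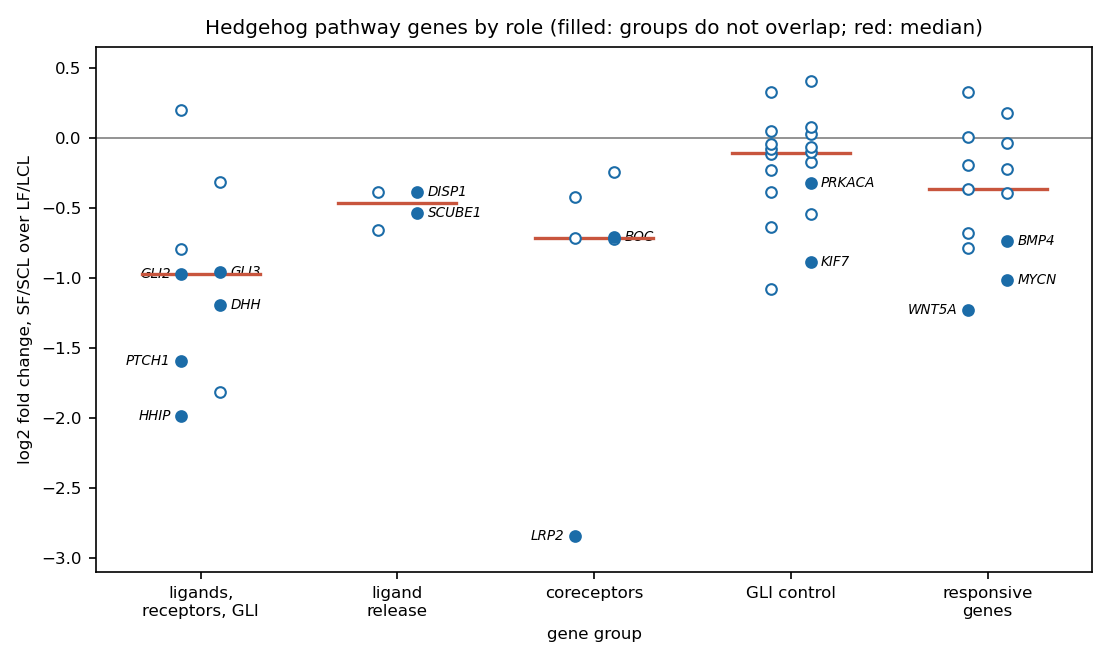
Log2 fold change of SF/SCL over LF/LCL from limma with all 6 cows (vertical axis) for the genes tested in each part of the pathway (horizontal axis), with a red line at the median of each group of genes. Filled circles are genes whose LF/LCL and SF/SCL cows did not overlap, 5 of 9 in the first group and 9 of the other 41, all below 0.

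The summed levels of several cell type markers also differed between the cows. All 8 fibroblast markers were lower in SF/SCL, with summed normalized counts of 386870 to 491402 in LF/LCL and 189887 to 287518 in SF/SCL, and none was at 0. COL1A1, COL3A1, LUM and PI16 among them are on lists that the study drew for the LF/LCL isthmus from the same libraries. Neither their direction nor a scaling by this sum is therefore independent evidence. The 7 smooth muscle markers found summed to 712920 to 832284 in LF/LCL, 332940 and 390648 in cows 856 and 97, and 1203034 in cow 489215. The 6 epithelium markers without OVGP1 summed to 21345 to 31546 in LF/LCL and 38830 to 48604 in SF/SCL. OVGP1, the oviduct-specific glycoprotein of secretory cells, was left out of that sum because it had 271794 and 325158 in cows 856 and 97 against 730 in cow 489215 and 287 to 1950 in LF/LCL, and with it the SF/SCL sums ran from 49334 to 370159. Against these sums the Hedgehog genes were set library by library, a scaling chosen after the data had been seen and given without a test.

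Per 100000 counts of the fibroblast markers, GLI1 was 173, 126 and 193 in cows 617, 79 and 527 and 124, 208 and 253 in cows 856, 97 and 489215, so that the order of the groups was lost. The log2 difference was 0.21 for GLI1, 0.036 for GLI2 and 0.048 for GLI3, each of them negative before the scaling. On the log2 scale this scaling adds the same amount to the difference of every gene. Which genes changed sign and which kept it was therefore set by their unscaled differences. Without cow 489215 GLI1 was at -0.0048 on this scale, GLI2 at 0.79, GLI3 at 0.85 and PTCH1 at 0.66, where PTCH1 was at -0.59 with all cows. IHH kept a log2 difference of -0.81 and HHIP of -0.98, which were -1.96 and -1.24 without cow 489215. For HHIP the values were 13.3, 20.4 and 10.7 in cows 617, 79 and 527 and 2.80, 10.8 and 10.2 in cows 856, 97 and 489215, and the groups overlapped. SMO was the one gene of the 9 whose groups did not overlap on this scale, at 481 to 656 in LF/LCL and 845 to 1582 in SF/SCL, where 54.3% of all genes tested were higher in SF/SCL without overlap. Per 100000 counts of the epithelium markers, IHH was 3882, 8513 and 11609 in cows 617, 79 and 527 and 262, 896 and 6790.5 in cows 856, 97 and 489215. The other 8 genes were lower in SF/SCL without overlap on that scale, SMO included, as were 48.6% of all genes. Without cow 489215 the log2 differences on that scale ran from -0.43 for SMO to -3.90 for IHH. The share of the Hedgehog differences that comes with the amount of stroma, muscle and epithelium in each piece was not tested further.

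**Figure D4:**
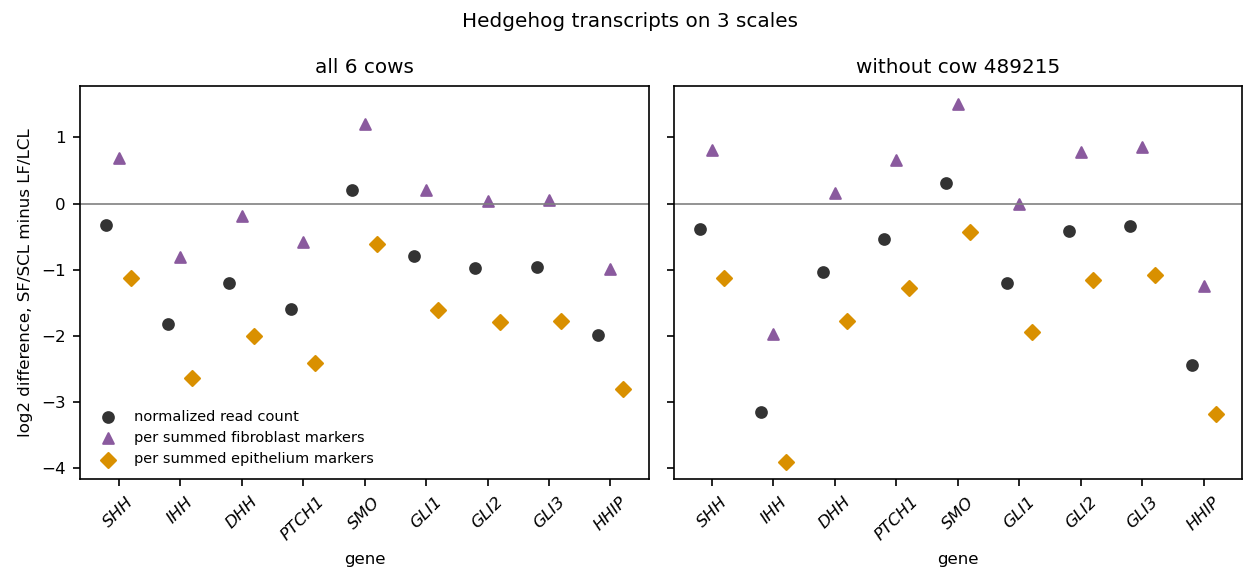
Mean log2 difference of SF/SCL minus LF/LCL (vertical axis) for the 9 genes (horizontal axis) as normalized read counts (circles), per summed fibroblast markers (triangles) and per summed epithelium markers (diamonds), with all 6 cows on the left and without cow 489215 on the right. IHH and HHIP are below 0 on each scale in both panels, while GLI1, GLI2 and GLI3 lie between 0.036 and 0.21 per fibroblast markers with all cows.

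The genes with a profile most like that of a Hedgehog gene over the 6 libraries were found by the root mean square difference of the log2 values, each centred on its own mean. For IHH they were ENSBTAG00000019276, which has no symbol in the table, DEFB (ENSBTAG00000045649) and CCNB1, the mitotic cyclin B1, at root mean square differences of 0.211, 0.264 and 0.344. CCNB1 had 2070.3, 2897 and 4711 normalized counts in cows 617, 79 and 527 and 281, 599 and 4395 in cows 856, 97 and 489215. For GLI1 they were IGFBP4, a binding protein of insulin-like growth factors, NRXN2, a neurexin, and AQP11, an aquaporin, at 0.114, 0.122 and 0.128. For PTCH1 they were KCND3, a potassium channel, C2CD2 and MN1, at 0.123, 0.146 and 0.163. KCND3 had 212, 223 and 227 in cows 617, 79 and 527 and 134, 156 and 17.3 in cows 856, 97 and 489215, with the low value in the last cow that PTCH1 also had.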

How the data were processed

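Per the paper's methods and the submitters' processing notes, the authors sequenced polyadenylated RNA as paired ends, aligned it to the masked bovine assembly UMD3.1 with TopHat2 2.0.8 and Bowtie2 2.1.0, counted unique reads per gene with HTSeq 0.5.4p2 (strand setting not stated) and deposited them as a signal, the count divided by the DESeq 1.12.1 size factor. In every library 100% of the values were whole multiples of 1 read within 0.01, so reads were recovered. The filter stated in the methods was a mean over 5 and over the SD. The study reported testing 15922 isthmus genes, which is the number that the mean alone keeps here. With both parts of the filter, genes were tested with limma 3.58.1 in R 4.3.3 (lmFit, then robust eBayes with a trend) on log2(value + 1), all 6 libraries, no covariates, Benjamini-Hochberg over 15387 genes. Fold changes are on that scale and understate low genes. edgeR 4.0.16 (quasi-likelihood), DESeq2 1.42.0 and limma-voom on recovered reads, TMM factors, pseudocounts of 0.5 and 5, other filters and leaving out each cow were alternatives. The tests were tried on simulated counts. Intervals cover counting error only.

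The Hedgehog genes and the lists were chosen with earlier results of these data known. Named pathway genes were those past the threshold or without overlap of the groups, and others were picked once their values were known. The marker lists gave these medians of the log2 fold change: ciliated epithelium 0.65, other epithelium 0.78, smooth muscle -0.60, fibroblasts -1.03, endothelium -0.19, nerve and Schwann cells -1.19 and leukocytes -0.04. Of mesothelium and erythrocytes 1 gene each was tested, BNC1 at -1.97 and AHSP at 0.22. The summed mesothelium markers went the other way from BNC1, at 2520 to 3388 in LF/LCL, 3499 in cow 489215 and 26272 and 26747 in cows 856 and 97. These sums came mostly from MSLN and WT1, which the filter left out with all 6 cows. LRRN4, also left out, went with BNC1, with means of 290 in LF/LCL and 8.46 in SF/SCL without overlap. UPK3B and CALB2 had higher means in SF/SCL with overlap.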

Additional observations from a re-analysis of the deposited data

How the results depend on the processing

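With all 6 cows, 0 genes passed the threshold in limma, and the same held for the Hedgehog genes and for the other pathway genes under edgeR, limma-voom, TMM factors, both pseudocounts and both other filters. DESeq2 called 416 genes, 0 of the 9 and 1 of the other pathway genes. Leaving out each cow in turn gave 0 to 2827 genes, 0 to 4 of the 9 and 0 to 11 of the other pathway genes, and every count above 0 came without SF/SCL cow 489215. Without that cow, in settings chosen after the data had been seen, edgeR called 2768 genes, 2 of the 9 (IHH and GLI1) and 11 other pathway genes, and DESeq2 called 3938 genes, 4 of the 9 and 15 others. The cause of the difference between this cow and the others was not tested. The sign of the 9 log2 fold changes held under all 14 of the alternatives listed among the methods. The 2 scalings by marker sums reversed 5 of them: relative to fibroblast markers SHH came to 0.69, GLI1 to 0.21, GLI2 to 0.036 and GLI3 to 0.048, and relative to epithelium markers SMO came to -0.61. Each scaling shifts the log2 difference of every gene by the same amount, so these reversals follow from the unscaled values. No paired analysis was possible because the groups share no cow numbers. At 4 to 9 reads per library, SHH could show only large differences.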
